A study of Mus musculus with 15 samples.

Results

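RNA of TKO mouse embryonic stem (ES) cells was compared with RNA of J1 ES cells on 3 expression arrays, deposited together as 1 of the 15 samples of a series that otherwise holds promoter arrays of methylated DNA. J1 is a wild-type mouse ES cell line. TKO cells carry a triple knockout of Dnmt1, Dnmt3a and Dnmt3b, the enzymes that methylate DNA, and the labels call them methylation deficient. Each genotype is represented by a single line, so variation among lines of the same genotype was not measured. Both lines grew in medium with serum and LIF, the cytokine that holds mouse ES cells undifferentiated, and both were kept without feeder cells for 2 passages before harvest. No treatment or time course was applied. All 41174 non-control probes were considered, and no promoter array was used to choose genes.

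Dnmt3a and Dnmt3b place methyl groups on cytosines of CG dinucleotides, and Dnmt1 copies the pattern onto new DNA strands after replication. ES cells are unusual in that they survive and divide without all 3 enzymes. In mouse cells promoter methylation is best known for silencing germ cell genes, genes on the X chromosome that are used in testis and placenta, imprinted genes and some genes of the extraembryonic lineages, that is trophoblast and primitive endoderm.

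Each array carried both lines, one in the dye Cy5 and the other in Cy3, so a single array gave a log2 ratio for each gene and the 3 arrays were the replicates. The labels allow either dye for each line and the study states that replicate 2 was dye-swapped. J1 in Cy5 on replicates 1 and 3 and in Cy3 on replicate 2 is the likely order, from the order of the channels in the labels and from the study's own averaged column. All directions below rest on it. Before any turning of signs the red-over-green ratios of replicates 1 and 3 correlated at 0.77 across 9050 spots, and replicate 2 correlated at -0.80 with replicate 1 and at -0.77 with replicate 3. The study says that the RNA came from the cultures used for the promoter arrays, but does not tie replicates to cultures, so the SD and p-values measure the spread between arrays, which may be technical. The number of arrays limits the precision. Between 38.6% and 66.8% of spots were well above background in a channel. Replicate 3 had the lowest shares and 8386 spots marked as uneven, against 11 on replicate 1 and 57 on replicate 2, so many genes were measured on replicates 1 and 2 alone. Replicates 2 and 3 carry the same slide code in their headers.

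The deleted genes were examined first. Dnmt3b RNA gave log2(TKO/J1) of -2.72, -2.44 and -2.34 on replicates 1, 2 and 3, a mean of -2.50 ± 0.19 (SD, n = 3). Dnmt3a gave -2.49 and -2.23 on the 2 arrays that measured it, and all 3 of its probes were lower in TKO. Dnmt1 gave -0.89 and -1.25 on 2 arrays. All 3 genes were below 0 on every array that measured them, and all 3 were well above background in TKO on 2 or 3 arrays, so transcript was still measured there. Whether these probes fall inside or outside the deleted exons was not examined, so the signal that remains checks nothing about the knockout. Dnmt3l, the cofactor of Dnmt3a and Dnmt3b that has no enzyme activity of its own, was higher in TKO, at 0.92, 0.71 and 0.74 on the 3 arrays (limma, Benjamini-Hochberg adjusted p = 0.000169). With each array centred on its median in place of loess normalisation, Dnmt3l was at 0.42 and no longer passed the test.

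Adjusted p here is limma's moderated test with Benjamini-Hochberg adjustment over all 13307 genes tested, and a gene was called at an adjusted p under 0.05. Each probe without a symbol counted as a gene of its own. The 8544 genes tested with a symbol, the only ones in the gene lists below, gave 1579 higher and 1312 lower. Across the array 2181 genes (16.4%) were higher in TKO and 2096 (15.8%) were lower. Most of these differences were small: the median log2 ratio was 0.46 among the higher genes and -0.44 among the lower ones, and 87.1% of genes tested lay within 0.5 of 0. Of the genes called, 208 (1.56%) were at least 2-fold higher and 88 (0.661%) at least 2-fold lower, of which 156 and 59 had a symbol. At least 4-fold, 29 were higher and 5 lower. Without replicate 1 the counts were 1167 higher and 939 lower, with 123 and 40 at least 2-fold, and without replicate 2 they were 1093 and 1038, with 135 and 56. The whole range ran from -2.50 for Dnmt3b to 3.86 for Afp. Of the 208 higher genes 169 exceeded background in J1 on each of the 3 arrays. The count of higher against lower calls depended on the scaling. With loess 51.0% of calls were higher and 70.3% of the 2-fold calls were. With median centring in place of loess, 396 genes were called higher and 800 lower, so 33.1% of calls were higher, and 51.8% of the 2-fold calls. As shares of all genes tested, these were 2.98% higher and 6.01% lower. Without the filter on dim probes 7.38% of genes were higher and 6.59% lower, and among genes that exceeded background in J1 on each of the 3 arrays 15.2% were higher and 16.2% lower; the counts below under these settings are to be read against those shares. The sizes depend on the background correction. With the scanner software's processed signals 45 of 115 named genes called had log2 ratios over 1.5 times as large, among them Afp at 5.89, Prl2a1 at 5.52, S100g at 4.88 and Dnmt3b at -3.77. Where a line was not well above background on every array, the log2 ratio is set against a dim channel.

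**Figure D1:**
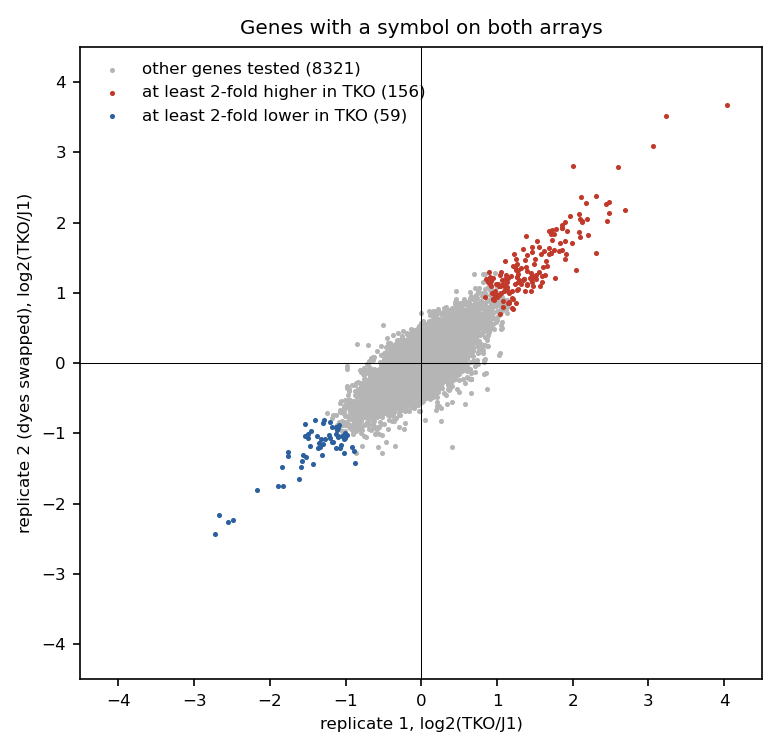
Each point is a gene with a symbol that was tested, with log2(TKO/J1) on replicate 1 on the horizontal axis and on replicate 2, where the dyes were swapped, on the vertical axis. The 156 genes called at least 2-fold higher (red) and the 59 called at least 2-fold lower (blue) lie on the same side of 0 on both arrays.

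Among the other genes that read or maintain methylation 3 passed. Of 18 listed writers, erasers and readers on the array, 11 were tested, and 5 fell, counting the 3 deleted genes, while 2 rose. The shares of all genes tested were 15.8% lower and 16.4% higher. Mbd4, a DNA glycosylase that binds methylated sites, fell to -0.59 ± 0.01 (SD, n = 2), and Zfp57, a zinc finger protein that protects methylation at imprinted regions, to -0.38 ± 0.07 (SD, n = 3). Uhrf2 was at 0.39 ± 0.25 (n = 2) and passed, while its relative Uhrf1, which guides Dnmt1 to newly copied DNA, was at 0.27 ± 0.03 (n = 2) and did not (adjusted p = 0.0721). Tdg and Setdb1 were at -0.17 and -0.03, short of the threshold.

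The lead group was the Rhox cluster, a set of reproductive homeobox genes side by side on the X chromosome that are used in testis, ovary and placenta. Rhox2a was at 3.24, 3.52 and 2.43 on replicates 1, 2 and 3, a mean of 3.06 ± 0.57 (SD, n = 3). Rhox9 was at 2.31, 2.38 and 2.24. Rhox6 was at 2.47 and 2.29, and Rhox4e at 2.18 and 2.28, on the 2 arrays that measured them. Rhox5, first known as Pem, was lower than these at 1.14 ± 0.02 (n = 2). All 6 tested members of 7 on the array rose, against 16.4% of all genes tested. Their median was 2.27, against -0.0094 over all genes tested. In J1, 5 of the 6 exceeded background on each array, and the sixth, Rhox3a, was well above background in TKO alone. Probes of near-identical copies can bind each other's transcripts, so the members are not independent.

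Other X-linked gene families that are used mainly in testis rose with them. All 11 tested members of 23 on the array were higher, against 16.4% of all genes tested, with a median of 0.95. Without the filter on dim probes all 23 could be tested and 16 were higher and 0 lower. With median centring 7 of 11 were higher and 0 lower. Xlr, which encodes a relative of the synaptonemal complex protein Sycp3, was at 2.10, 2.04 and 2.84 on replicates 1, 2 and 3. Magea3 was at 2.05, 1.32 and 2.01, and its relative Magea5 at 1.46, 1.24 and 1.54, both members of the melanoma antigen family. Magea3 was well above background in J1 on 1 array of 3, against 3 of 3 in TKO. Ott was at 1.22, 1.56 and 1.55. Lower in the list were Xlr5c (1.03), Fthl17e, a ferritin-like gene (0.95), Nxf3, of the RNA export family (0.95), and Xlr4b (0.76).

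Germ cell and meiotic genes were the third group. Dazl, an RNA-binding protein of early germ cells, was at 2.01, 2.80 and 2.46 on replicates 1, 2 and 3. Stra8, which starts meiosis in response to retinoic acid, was at 2.44, 2.26 and 2.11. Asz1, which protects the germ line from transposons, was at 2.12 and 2.02 on 2 arrays, Tex13b at 1.92, 1.56 and 2.30, and Tex101, a germ cell surface protein, at 1.78 ± 0.06 (n = 3). No array put any of these 5 near 0, and each was well above background in J1 on every array used. Of 24 tested members of 38 on the array, 17 rose and 2 fell, against 16.4% and 15.8% of all genes tested. The median was 0.52. Without the filter 18 of 38 were higher and 2 lower, and among the 20 members measured in J1 on all 3 arrays 14 were higher and 2 lower. With median centring 10 of 24 were higher and 0 lower. Genes of the synaptonemal complex, the protein ladder that joins paired chromosomes, moved less: Sycp1 was at 0.79 ± 0.20, Tex12 at 0.98 ± 0.24 (n = 2), Syce2 at 0.74 ± 0.25 (n = 2) and Sycp3 at 0.33 ± 0.06 (n = 2). The cohesin subunit Smc1b fell to -0.38 ± 0.15 (n = 2) and Prdm1, a regulator of primordial germ cells, to -0.32 ± 0.07 (n = 3).

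Germ line defence against transposons by piRNAs, small RNAs that guide Piwi proteins, had 10 genes on the array and 7 tested. Of the 7, 5 rose and none fell, counting Asz1, Fkbp6 and Ddx4, which are in the germ cell list as well. Of all genes tested 16.4% rose and 15.8% fell. Tdrd7, a scaffold protein of germ cell granules, was at 1.20, 0.79 and 1.18 on replicates 1, 2 and 3. Fkbp6, a chaperone of the pathway, was at 1.18, 1.24 and 0.64. Mov10l1, a helicase that starts piRNA production, was at 0.69 and 0.50 on 2 arrays, and with median centring it did not pass. Tdrd1 was at -0.01 ± 0.15 (n = 3) and Mael at -0.10 ± 0.20 (n = 2).

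The 200 bases before the annotated start of Dazl and Asz1 are shown because both genes rose by over 2 log2 units and have promoters rich in CG. S100g and Prl4a1, described further on, are shown beside them because they also rose by over 2 log2 units and have almost none. The sequences are those of RefSeq on GRCm38.p6, read 5′ to 3′ on the strand of the gene, with every CG dinucleotide in capitals.
Dazl, chr17:50293621-50293820, minus strand: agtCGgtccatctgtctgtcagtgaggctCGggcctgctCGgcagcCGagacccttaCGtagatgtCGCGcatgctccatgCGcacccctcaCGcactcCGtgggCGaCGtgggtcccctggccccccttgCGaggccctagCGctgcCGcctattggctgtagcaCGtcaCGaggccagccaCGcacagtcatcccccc
Asz1, chr6:18109062-18109261, minus strand: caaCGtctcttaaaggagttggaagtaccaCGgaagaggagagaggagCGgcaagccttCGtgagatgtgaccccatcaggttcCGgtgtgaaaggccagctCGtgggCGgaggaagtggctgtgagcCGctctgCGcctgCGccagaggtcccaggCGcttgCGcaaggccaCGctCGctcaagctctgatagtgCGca
S100g, chrX:162964600-162964799, minus strand: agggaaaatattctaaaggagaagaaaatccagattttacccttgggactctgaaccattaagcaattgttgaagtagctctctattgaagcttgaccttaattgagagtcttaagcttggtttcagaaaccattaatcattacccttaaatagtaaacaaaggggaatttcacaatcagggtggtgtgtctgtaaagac
Prl4a1, chr13:28016012-28016211, plus strand: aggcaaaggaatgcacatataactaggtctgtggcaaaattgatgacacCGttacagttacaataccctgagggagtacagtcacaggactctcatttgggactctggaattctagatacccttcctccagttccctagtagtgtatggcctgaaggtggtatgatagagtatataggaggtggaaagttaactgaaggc
These windows hold 18, 15, 0 and 1 CG dinucleotides. Dazl and Asz1 were picked for display after their values were seen.

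Over all genes, CG content was set against the calls as the observed over expected number of CG in the 300 bases around the start, averaged over a gene's RefSeq promoters. Of the genes tested with a symbol 80.6% had such a value. The median was 0.76 for genes tested, 0.72 for the higher ones and 0.73 for the lower ones. For genes at least 2-fold higher 120 of 156 (76.9%) had a promoter in the RefSeq table, and for genes at least 2-fold lower 76.3%. With this coverage the comparison was treated as void, and no conclusion is drawn from the values that follow. Among those with a value the medians were 0.49 and 0.60. Genes at least 2-fold higher were 5.98% of tested genes with a value under 0.35. They were 2.42% from 0.35 to under 0.65, and 0.872% from 0.65 up. For genes at least 2-fold lower these shares were 2.19%, 0.743% and 0.392%. The near-equal medians of all called genes are not to be carried over to large changes. Of the germ cell list 31 of 38 members had a single RefSeq promoter. The letters CACGTG, a palindrome and the core of the E-box, were in 9 of the 31 (29.0%), and the letters GCGGGAA, searched on both strands and a core bound by E2F proteins, also in 9, against 7.12% and 4.60% of 22862 RefSeq promoters of the same length. Among genes tested with a symbol, 63.9% of which had a single promoter, the shares were 10.7% and 9.24%. With this coverage, too, no conclusion is drawn from the comparison. Of members with CACGTG 7 of 8 tested rose, with a median of 0.55, and of the 11 tested without it 7 rose and 2 fell, with a median of 0.58. Of members with GCGGGAA 5 of 7 tested rose and 1 fell, with a median of 0.33, and of the 12 without it 9 rose and 1 fell, with a median of 0.86; these differences were not tested. Dazl, Stra8, Asz1, Tex13b and Tex101, the highest of the list, held neither.

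Genes of the placental prolactin family rose, and most of them were at background in J1. These hormones, encoded side by side on chromosome 13, are made by trophoblast giant cells and spongiotrophoblast of the rodent placenta. Prl3d1, the early placental lactogen, was at 1.69, 1.88 and 1.86 on replicates 1, 2 and 3, and its neighbour Prl3d2 at 1.72, 1.56 and 1.67; both were measured in J1 as well. Prl4a1 was well above background on all 3 arrays in TKO and on none in J1, so only a bound can be given: it was at least 3.93-fold higher. Such a bound sets the mean level of the bright line against the higher of the background limit and the dim probe's own level, and dyes are not balanced over 3 arrays. Prl7d1 was at least 2.93-fold higher on 3 arrays, and Prl2a1 at least 4.44-fold on the 2 arrays with even spots. All 5 tested members of 23 on the array rose, against 16.4% of all genes tested, with a median of 1.81. However, Prl4a1, Prl7d1 and Prl2a1 were tested through their level in TKO. Without the filter 9 of 23 were higher and 0 lower, and the median was 0.06. Of the 23, 18 were at background in J1 on every array.

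Of the transcription factors of trophoblast, fewer were measured. Gata3 was at 2.20 and 1.83 on 2 arrays, while Gata2 was at 0.44 ± 0.15 (n = 2). Cdx2 and Elf5, which define trophoblast stem cells, were not tested: Cdx2 was well above background on no array in J1 and on 2 in TKO, and Elf5 on none and on 1. Tfap2c was at -0.15 ± 0.07 (n = 2). Among the markers, Esx1, an X-linked homeobox gene of the placenta, was at 1.46, 1.58 and 1.63, Plac1 at 1.53, 1.74 and 1.03, and Sct, which encodes the hormone secretin, at 2.19 and 2.05 on 2 arrays. Of 10 tested members of 28 on the array 7 rose and 1, the growth factor Bmp4 (-0.30 ± 0.10, n = 3), fell. The shares of all genes tested were 16.4% higher and 15.8% lower. Without the filter 11 of 28 were higher and 1 lower.

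Regulators and products of the primitive endoderm, the layer that lines the early yolk sac, rose too. Dab2, an endocytic adaptor needed for that layer, was at 2.69, 2.19 and 2.29 on replicates 1, 2 and 3, and 2 of its 3 probes were higher. Gata6, its first transcription factor, was at 1.57 ± 0.09 (n = 3), and Sox17 at 1.38 ± 0.18 (n = 2), while Gata4, Foxa2, Hnf4a and Sox7 had too few arrays above background to be tested. The coats of the basement membrane moved unequally. Collagen IV chains Col4a1 and Col4a2 were at 1.67 ± 0.39 and 1.11 ± 0.29 (n = 3 each), laminin chains Lama1, Lamb1 and Lamc1 at 1.32, 0.83 and 0.49, and the collagen chaperone Serpinh1 at 1.85 ± 0.20 (n = 2). The linker nidogen Nid1 fell to -0.58 ± 0.17 (n = 3), and Nid2 was at -0.10. Amn, an absorptive receptor of visceral endoderm, was at 1.87, 1.96 and 1.66, and Cited1 at 1.78 and 1.92 on 2 arrays. Of 17 tested members of 25 on the array 14 rose and 1 fell, against 16.4% and 15.8% of all genes tested. The median was 1.11.

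The gene with the highest ratio of all, Afp, encodes alpha-fetoprotein, the main secreted protein of yolk sac and fetal liver. It was at 4.04 and 3.68 on the 2 arrays that measured it, and well above background in J1 on both. Secreted proteins of the same tissues followed: the fibrinogen chain Fgb at 2.12 and 2.01 on 2 arrays, the lipid carriers Apoc2 at 2.11, 2.37 and 1.59 and Apom at 1.83, 1.71 and 1.32 on 3 arrays, and Rbp4, which carries vitamin A, at 1.61 ± 0.24 (n = 3). Apoa1 was at least 1.87-fold higher, being well above background in TKO alone, and Fabp1, a fatty acid carrier, at least 1.95-fold on 2 arrays. Not all members moved: the third fibrinogen chain Fgg was at 0.00 ± 0.07 (n = 3), Apoa4 at 0.13 ± 0.15 (n = 2), Alb, the albumin of liver, was well above background in neither line, and Apoe fell to -0.42 ± 0.06 (n = 3). Of 14 tested members of 25 on the array 11 rose and 1 fell, against 16.4% and 15.8% of all genes tested. Without the filter 15 of 25 were higher and 1 lower.

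Keratins of simple epithelia, which trophoblast and endoderm share, were among the strongest. Krt8 was at 3.06, 3.08 and 2.56 on replicates 1, 2 and 3 and its partner Krt18, the next gene on chromosome 15, at 2.48, 2.14 and 2.48. Krt19 was at 1.45 ± 0.06 (n = 2) and Krt7 at 1.22 ± 0.22 (n = 3), while Krt20 fell to -0.48 ± 0.03 (n = 3). S100g, a calcium-binding protein of gut, uterus and placenta on the X chromosome, had the largest bound, at least 4.57-fold higher. Srgn, the proteoglycan serglycin, was at 2.60, 2.79 and 2.39. Cell junction genes were mixed: the tight junction proteins Cldn7 and Ocln were at 0.84 ± 0.26 and 0.72 ± 0.20 (n = 3 each), the cadherin Cdh1 was at 0.25 ± 0.16 (n = 2, adjusted p = 0.109), and Epcam fell to -0.49 ± 0.02 (n = 2). Of 25 tested members 14 rose and 3 fell, against 16.4% and 15.8% of all genes tested. With median centring 10 of 25 were higher and 0 lower. The list also holds genes that are neither keratins nor junction genes, Srgn and S100g among them. It was chosen with earlier results of these data known, so the count is not independent support.

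**Figure D2:**
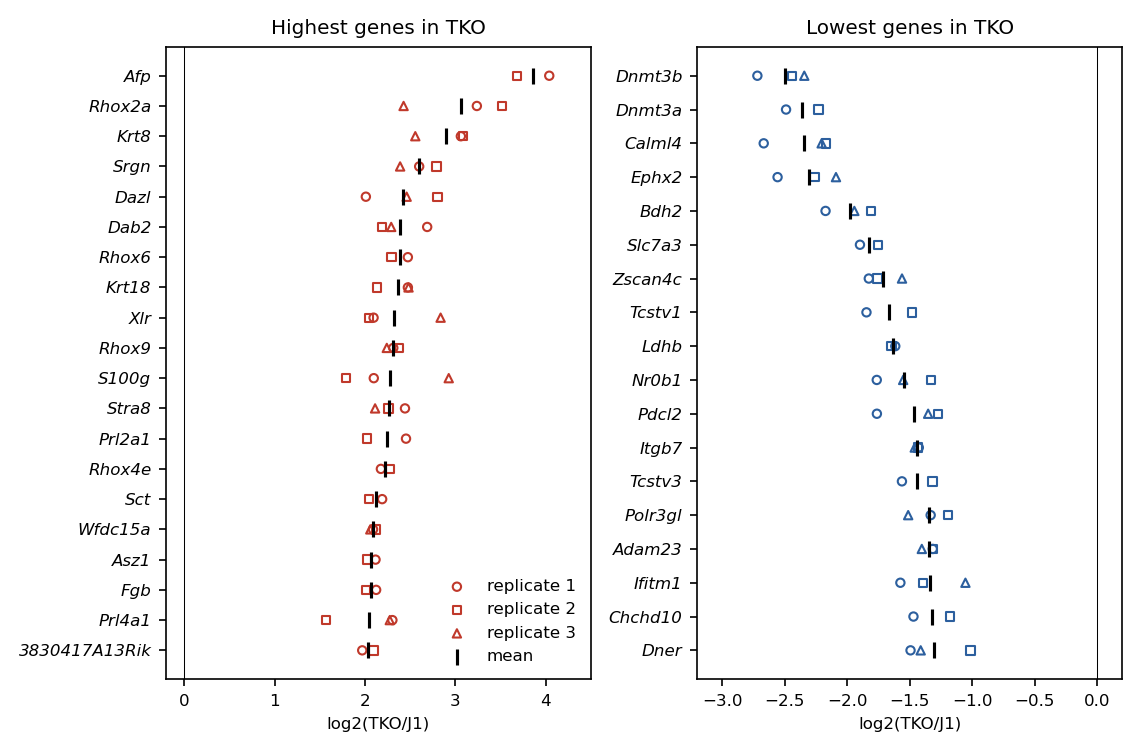
Log2(TKO/J1) on each array for the genes with the highest (left) and lowest (right) mean ratios among called genes, with circles, squares and triangles for replicates 1, 2 and 3 and a bar at the mean. The rule took only genes with the same sign on every array that measured them, so every point lies on its gene's side of 0. Genes with only a circle and a square were not measured on replicate 3.

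Matrix and fibroblast genes rose as well. Ccn1, a matrix protein induced by YAP, was at 1.59 and 1.56 on the 2 arrays that measured it, and Lox, which crosslinks collagen, at 1.25 and 1.49. Thbs1 was at 1.14 ± 0.42 and the collagen chain Col1a2 at 1.00 ± 0.08 (n = 3 each). Vim, the mesenchymal filament protein, fell to -0.54 ± 0.11 (n = 2), and Fn1 was at 0.08 ± 0.52 (n = 3). Of 17 tested members of 29 on the array 12 rose and 1 fell, against 16.4% and 15.8% of all genes tested. The median was 0.51. Fibroblasts are the usual feeder cells of ES cultures and both lines were kept without them for 2 passages; of the matrix genes of the list, Lum was well above background in neither line and Dcn on 2 arrays in J1 and 1 in TKO, while Fbln2 (1.05), Prrx1 (0.51), Twist1 (0.47) and Col1a1 (0.48) rose. With median centring 8 of 17 were higher and 0 lower. The part of residual feeder cells in these rises was not tested. In whole cultures, more cells of another type and more RNA per cell cannot be told apart, and this applies to each group of lineage markers above.

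Markers of the embryo proper did not follow the extraembryonic ones as a group. Of 11 tested epiblast and germ layer genes 3 rose and 2 fell, against 16.4% and 15.8% of all genes tested. Their median of 0.09 turned to -0.05 with median centring. Nes, a filament protein of neural progenitors, was at 0.97 and 0.86 on 2 arrays, and Gsc, of the organizer, at 0.53, 0.40 and 0.74. Otx2 and Wnt3 fell to -0.38 ± 0.21 and -0.41 ± 0.11 (n = 3 each). With median centring Gsc, Otx2 and Wnt3 did not pass. Fgf5, Mixl1 and Sox3 were well above background in neither line, and T, the mesoderm factor brachyury, on 1 array in TKO alone.

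Hox genes, the body-axis homeobox genes that are silent in ES cells, were mostly dim. Of 37 on the array 21 were at background in J1 on every array. Those tested were 7, of which 5 rose and 0 fell, against 16.4% and 15.8% of all genes tested. Hoxc9 was at 1.05, 0.99 and 1.53 on replicates 1, 2 and 3 and Hoxb2 at 0.94, 0.72 and 1.33, while Hoxd4, Hoxa7 and Hoxd1 were each at 0.42. In J1, Hoxc9 was well above background on 1 array and Hoxb2 and Hoxd1 on 2, so these genes were tested through their level in TKO. Without the filter 9 of 37 were higher and 0 lower, among the 4 members measured in J1 on all 3 arrays 2 were higher, and with median centring 2 of 7 were.

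Genes of pluripotency were called in both directions. Nr0b1, an X-linked nuclear receptor cofactor of ES cells, was at -1.76, -1.33 and -1.55 on replicates 1, 2 and 3. Tdh, the threonine dehydrogenase on which mouse ES cells depend, was at -1.02 and -1.09 on 2 arrays, and Klf2 at -0.87, -1.27 and -0.69. Pou5f1, which encodes Oct4, was at -0.62 and -0.82 on 2 arrays and Sox2 at -0.81, -0.70 and -0.89, so both core factors were below 0 on each array; with median centring Pou5f1 was at -0.75 and did not pass. Klf4 went the other way, at 0.95, 0.81 and 1.21, as did Dppa3 (0.73 ± 0.21, n = 3), an egg and germ cell gene, and Tex19.1 (0.66 ± 0.29, n = 2). Zfp42, the marker known as Rex1, was at 0.39 and -0.09 and did not pass (adjusted p = 0.426). Of 24 tested members 8 fell and 5 rose, against 15.8% and 16.4% of all genes tested. The median was -0.13, and with median centring 5 were lower and 1 higher. All 24 tested members exceeded background in J1 on each array, but the filter selects for this. Gdf3, Lefty1, Lefty2, Sall4 and Utf1 did not pass it. Of 29 members on the array 0 were at background in J1 on every array. With uneven spots left out, 13 were well above background there on all 3. No probe could be named Nanog.

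The rare ES cell state marked by Zscan4, in which genes of the early cleavage embryo are used, had the lowest median among the tested members of the lists, at -0.61; without the filter on dim probes it was -0.12. Zscan4c was at -1.83, -1.76 and -1.56 on replicates 1, 2 and 3. Tcstv1 and its neighbour Tcstv3 were at -1.85 and -1.48, and at -1.56 and -1.32, on 2 arrays each. Zfp352 was well above background in J1 alone and at least 1.64-fold lower in TKO. Pramel7, which keeps ES cells in a naive state, went against these: it was well above background in TKO alone and at least 1.84-fold higher. Of 8 tested members of 14 on the array 6 fell and 1 rose, against 15.8% and 16.4% of all genes tested. Zscan4 and Tcstv genes are families of near-identical copies, so these probes may read several copies.

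**Figure D3:**
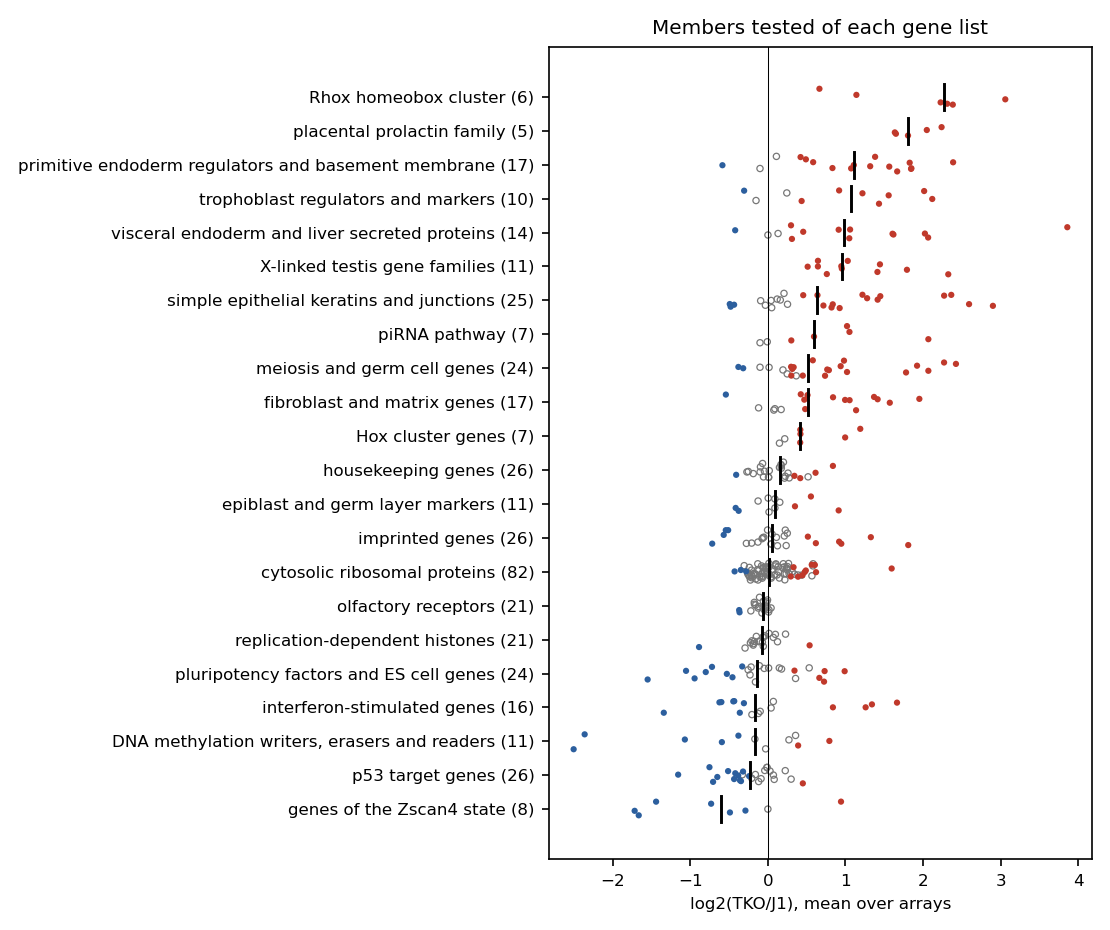
Each point is a tested member of a gene list at its mean log2(TKO/J1), filled red where it was called higher, filled blue where called lower and open where it did not pass, with a bar at the median of the list and the number tested in brackets. The Rhox cluster (median 2.27) and the placental prolactins (1.81) lie at the top and the genes of the Zscan4 state (-0.61) at the bottom. Only tested members are drawn. Without the filter on dim probes the median was 2.23 for the Rhox cluster, 0.06 for the prolactins and -0.12 for the Zscan4 state.

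The remaining strong falls shared no list. Calml4, a calmodulin-like protein, was at -2.67, -2.17 and -2.20 on replicates 1, 2 and 3, and Ephx2, an epoxide hydrolase, at -2.56, -2.26 and -2.09. Bdh2, a short-chain dehydrogenase, was at -2.17, -1.81 and -1.94. Slc7a3, an X-linked transporter of cationic amino acids, was at -1.90 and -1.75, and Ldhb, a lactate dehydrogenase subunit, at -1.61 and -1.64, on 2 arrays each. The integrin chain Itgb7 was at -1.43, -1.43 and -1.46, the metalloprotease-like Adam23 at -1.31, -1.31 and -1.40 and the polymerase III subunit Polr3gl at -1.33, -1.19 and -1.51. The SD over arrays ran from 0.02 for Itgb7 (n = 3) and Ldhb (n = 2) to 0.28 for Calml4 (n = 3). These genes were selected by adjusted p and by the same sign on every array, which favours a small spread.

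Imprinted genes, expressed from the allele of a single parent because the other is methylated or silenced through a methylated region, included genes higher and genes lower in TKO. Cdkn1c, a cell cycle inhibitor expressed from the maternal allele, was at 1.72 and 1.90 on 2 arrays. Dlk1 was at 1.33 ± 0.07 (n = 3), and Meg3, the noncoding RNA of the same domain expressed from the other parent's allele, at 1.12 and 0.77 on 2 arrays. Peg10, a retrotransposon-derived placental gene, was at 0.93 and 0.90 on 2 arrays, and Igf2r at 0.62 ± 0.22 (n = 3). Kcnq1ot1, the noncoding RNA whose promoter is the imprinting centre of the Cdkn1c domain, fell to -0.72 ± 0.29 (n = 3), and Impact, Mcts2 and Zrsr1 fell to -0.57, -0.54 and -0.51. Igf2 was at 0.13 ± 0.08 and Snrpn at -0.21 ± 0.48 (n = 3 each), neither past the threshold. Of 26 tested members of 41 on the array 6 rose and 4 fell, against 16.4% and 15.8% of all genes tested. Xist, the noncoding RNA of X inactivation, was well above background on 2 arrays in TKO and on none in J1, and was not tested.

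Interferon-stimulated genes were also called in both directions. Ifitm1, a membrane protein that blocks virus entry, was at -1.57, -1.39 and -1.05 on replicates 1, 2 and 3, and Ifitm2 and Ifitm3 fell to -0.62 ± 0.07 and -0.36 ± 0.25 (n = 3 each). Gbp2 fell to -0.60 ± 0.10 and Oas1a and Oas2 to -0.44 and -0.43. In TKO, Gbp2 was well above background on 1 array and Oas2 on 2. Ifi27 was at 1.69 and 1.64 on 2 arrays, Bst2, a tether of budding virus on chromosome 8, at 1.39 and 1.13 on 2 arrays, the class I histocompatibility gene H2-D1 at 1.59, 1.23 and 1.20, and its light chain B2m at 0.63, 0.88 and 1.01. The sensors and early response genes Ifih1, Ifit1, Ifit2, Ifit3, Mx1, Tlr3 and Usp18 were well above background in neither line. Of 16 tested members of 37 on the array 7 fell and 4 rose, against 15.8% and 16.4% of all genes tested. Sp110, a nuclear body protein induced by interferon, was well above background in J1 alone and at least 2.26-fold lower in TKO.

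Among targets of p53, the factor that responds to DNA damage, 12 of 26 tested fell and 1 rose. Across all genes tested 15.8% fell and 16.4% rose. Psrc1 was at -0.88 and -1.43 on 2 arrays, Plk2, a stress-induced kinase, at -0.93 and -0.57 on 2 arrays, Trp53inp1 at -1.01, -0.61 and -0.49 on 3 and Fas, a death receptor, at -0.79, -0.51 and -0.64. Mdm2, which degrades p53 and is its target, fell to -0.51 ± 0.20 (n = 2). Apaf1 rose to 0.45 ± 0.11 (n = 3). The best known target, the cell cycle inhibitor Cdkn1a, was at -0.04 ± 0.02 (n = 2), and Bax and Pmaip1 were at 0.03 and -0.01. The median was -0.22. With median centring 5 of 26 were lower and 0 higher, and Plk2 did not pass.

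Housekeeping and bulk genes served as a comparison. Actb was at -0.16, -0.42 and 0.03 on replicates 1, 2 and 3, and Gapdh at 0.21, -0.08 and -0.26, so neither had the same sign on every array. Of 26 tested housekeeping genes 4 rose, B2m among them, and 1 fell, against 16.4% and 15.8% of all genes tested. Their median of 0.16 turned to -0.07 with median centring. Of 82 tested ribosomal protein genes 10 rose and 3 fell, with a median of 0.02 that turned to -0.23 with median centring, which gave 1 higher and 7 lower. Without replicate 1 there were 5 higher and 1 lower of 41 tested, without replicate 2 14 and 0 of 41, and without replicate 3 5 and 2 of 83. The single ribosomal gene over 2-fold, Rpl39l at 1.38 and 1.81 on 2 arrays, is a copy used in testis. Rps28 and Rps16 passed with an SD of 0.65 and 0.57 and saturated spots on 3 and 2 arrays, and neither passed without replicate 1 or without replicate 3. The 2 probes of Rps28 differed in sign. Histone genes had 1 higher, H1f5 (0.54 ± 0.26, n = 2), and 1 lower, H1f2 (-0.89 ± 0.21, n = 3), of 21 tested. Of 891 olfactory receptors 683 were at background in J1 on every array, 21 were tested, 0 rose and 2 fell (limma, adjusted p under 0.05), and without the filter 0 rose and 2 fell of 891. Of 30 clustered protocadherins 3 were tested and Pcdha9 passed, at 0.46 ± 0.19 (n = 3) with 2 of its 3 probes higher, while 25 were at background in J1 on every array.

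A separate view counts genes that crossed the detection limit, in place of a ratio. Of 16787 genes with a symbol, 5463 exceeded background in both lines on each array and 3482 in neither on any. Only 41 (0.244%) were well above background on all 3 arrays in TKO and on none in J1, and 8 (0.0477%) the reverse. The 41 had a median bound of at least 1.32-fold, and 4 of them, S100g, Prl4a1, Prl7d1 and Arhgef6, had a bound of 2 or more. Arhgef6, an exchange factor for small GTPases on the X chromosome, was at least 2.39-fold higher and all 3 of its probes were higher. Others were Nostrin, which traffics endothelial nitric oxide synthase (at least 1.93-fold), Timd2, a ferritin receptor (at least 1.78-fold), Akr1c13, an aldo-keto reductase (at least 1.68-fold), Ssx9 of the synovial sarcoma X family (at least 1.58-fold) and Hsh2d (at least 1.55-fold). The 8 genes of the reverse group were smaller: after Sp110 and Zfp352 came Defa23 (at least 1.28-fold lower), Ms4a6d (at least 1.27-fold) and Defa24 (at least 1.21-fold). The defensins Defa23 and Defa24 are near-identical copies. When 2 arrays of 3 were enough for detection, 170 genes were gained and 38 lost. Without replicate 1 there were 48 gains and 81 losses, so losses outnumbered gains. Without replicate 2 there were 119 and 10, and without replicate 3 there were 127 and 30.

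**Figure D4:**
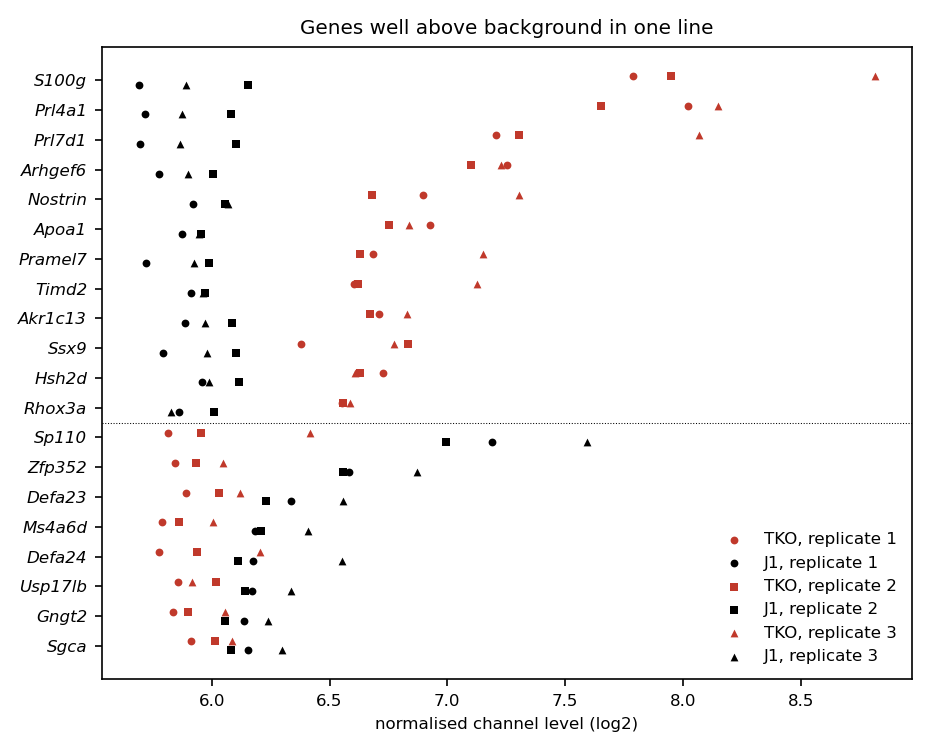
Normalised channel level (log2) on each array in TKO (red) and J1 (black) for the genes with the largest bounds among those well above background in TKO alone (above the dotted line) and all those well above background in J1 alone (below it). Levels of different genes are not comparable. The J1 points of the upper genes all lie under 6.2, and S100g reaches 8.82 in TKO on replicate 3.

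The calls were spread unevenly over the chromosomes. The X chromosome held 310 genes tested, 24 of them (7.74%) at least 2-fold higher, against 132 of 8234 (1.60%) elsewhere. Of the 24, 10 belong to the Rhox and X-linked testis lists; outside these lists 14 of 293 (4.78%) were at least 2-fold higher. They included S100g, Cited1, Tex13b, Esx1, Plac1, Scml2, a Polycomb-related germ cell protein (1.61), Dusp9, a phosphatase of MAP kinases (1.19) and Arhgef6. The median over all X-linked genes was -0.04, so the chromosome as a whole did not shift upward. Falls were more frequent on X as well. At any size 70 of its 310 genes tested (22.6%) were higher and 64 (20.6%) lower. At least 2-fold lower were 4 (1.29%), against 0.668% elsewhere. Of the 41 genes measured in TKO alone 7 were on X (17.1%), which holds 3.51% of genes with a symbol on the array.

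Chromosome 8 differed in another way. Its median was 0.19, with 0.22, 0.16 and 0.12 on replicates 1, 2 and 3, and 186 of 473 genes (39.3%) were higher and 36 (7.61%) lower. Chromosome 13 had a median of 0.11, with 0.05, 0.13 and 0.12, and 96 of 319 genes (30.1%) were higher. The medians of the other 18 chromosomes lay between -0.05 and 0.02, and at most 22.6% of their genes were higher. With median centring every chromosome was lower, chromosome 8 at 0.09 and chromosome 13 at -0.03 against -0.14 to -0.07 for the others, so the order was kept and the sign of chromosome 13 was not. On chromosome 8 the shift was carried by many genes of modest change, with 12 genes at least 2-fold higher and 0 at least 2-fold lower; Arhgap10 (1.68), Wwc2 (1.46), Hmox1, a heme oxygenase (1.31) and Pard3, a cell polarity gene (1.28), were among the highest. Col4a1, Col4a2 and Bst2, named above, lie on chromosome 8, and the prolactins, Tcstv1 and Tcstv3 on chromosome 13; how much of their change the shift of the chromosome accounts for was not tested. A difference in the number of copies of a chromosome between the lines was not measured here.

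**Figure D5:**
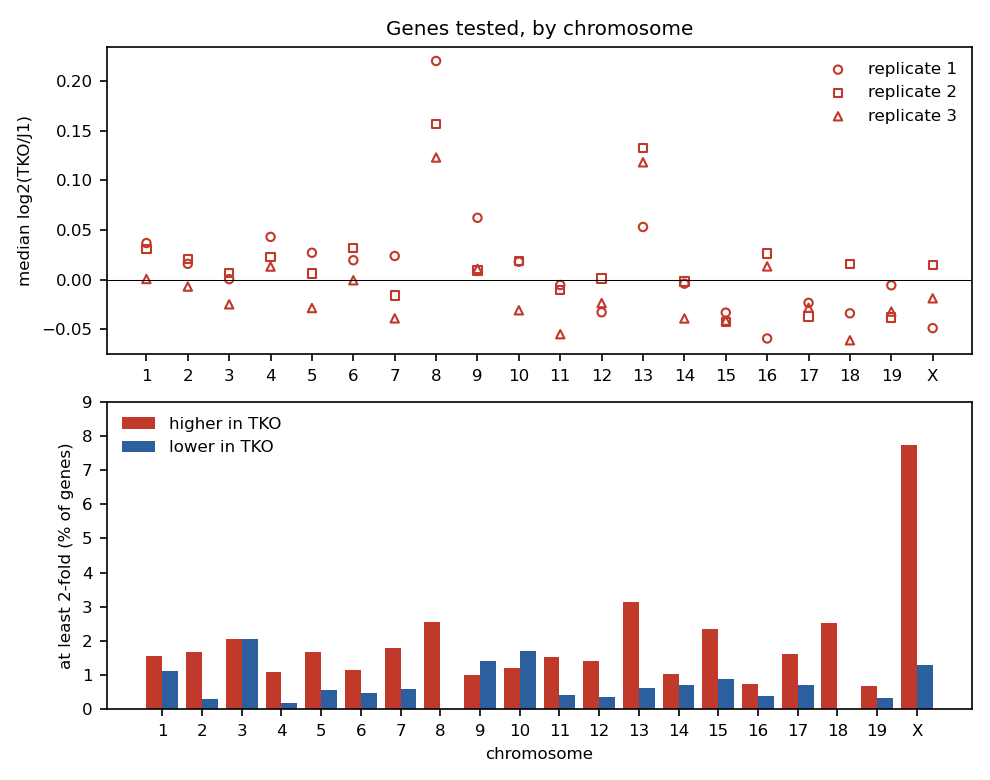
Top, median log2(TKO/J1) of the genes tested on each chromosome on replicates 1 (circles), 2 (squares) and 3 (triangles). Bottom, percent of genes tested that were at least 2-fold higher (red) or lower (blue); chromosomes 8 and 13 stand highest on all arrays but replicate 1 for chromosome 13, and X has the tallest bar, at 7.74%.

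Higher genes also lay next to each other. Of the 193 genes at least 2-fold higher or measured in TKO alone, 25 had a neighbour in the same set among the genes on the array, and 7.77% of all their neighbours were in it, against 1.15% of genes overall. For the 66 lower genes these were 2 genes, Tcstv1 and Tcstv3, and 1.53% of neighbours against 0.393%. The longest run was Rhox2a, Rhox3a, Rhox4e, Rhox5, Rhox6 and Rhox9, followed by Ssxb1, Ssxb2 and Ssx9, both on X. Runs of 2 were Prl3d1 with Prl3d2, Prl2a1 with Prl4a1, Krt8 with Krt18, Col4a1 with Col4a2, Akr1c13 with Akr1c19, Sct with Drd4, Plac1 with C430049B03Rik, and Xlr with 3830403N18Rik. The neighbours of the Rhox, Ssx, prolactin and Akr1c families are related copies, whose probes may bind each other's transcripts. Whether they do was not examined for any run. Sct with Drd4 and Plac1 with C430049B03Rik are not copies of one family.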

How the data were processed

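RNA of J1 and TKO cells was hybridised together on 3 Agilent 44k arrays, dyes swapped on replicate 2. The scanner files hold spot and background intensity of both channels, deposited by the authors as written by Agilent Feature Extraction (8.5 per the submitters' processing notes; the file headers also name an earlier version). The deposited log10 column is the authors' mean ratio with the swap taken into account; its sign, scale and centring were read from the scanner files, and it correlated with the log2 ratios used here at 0.923 across genes.

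From the intensities, normexp background correction (offset 50) and loess within each array were run in limma 3.58.1 (R 4.3.3), with control spots at weight 0 and uneven spots left out. Ratios were turned to log2(TKO/J1). The brightest probe stood for a gene. The gene was tested if that probe was well above background in J1 or in TKO on all 3 arrays (uneven spots counted for this). The lmFit and eBayes test with Benjamini-Hochberg adjustment covered 13307 genes. Of these 8544 had a symbol, and each of the others was a probe without one. Simulated data of 13307 genes had 200 changed genes. In these the test recovered 0% of changes of 0.5, 34.5% of changes of 1 and 87% of changes of 2 on the log2 scale. In the TKO against J1 comparison far more genes were called, which makes the adjusted p more lenient. These rates therefore do not give the share of real changes recovered.

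RefSeq (GRCm38.p6) named 22199 probes by accession, 1099 were named by their description, and 12 with several genes and 17864 with none stayed unnamed. Motifs were searched on both strands of 300-base promoters.

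The gene groups were chosen with earlier results of these data known. Genes were named by rule. It took the 20 highest and 20 lowest called genes with the same sign on every array that measured them. It also took the 12 largest gains and 8 losses of detection, and 4 per list over 23 lists. Other genes were named after their values were seen. Some items these rules select are not reported here. Alternatives were the scanner software's processed signals, median centring, other filters, a dye term, the mean over probes, uneven spots kept and each array left out. After seeing the data, counts among genes measured in J1 and CG content averaged over all promoters of a gene were added. The promoter arrays were not used.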

Additional observations from a re-analysis of the deposited data

How the results depend on the processing

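Of 1040 tests of named genes under alternative settings, 980 kept their direction and their side of the threshold, 56 no longer passed, 3 newly passed and 1 reversed: Gapdh, never called, ran from -0.17 without replicate 1 to 0.066 without replicate 3, against -0.04 with all arrays. Median centring accounts for 25 of the 56. The authors' deposited mean, which has no test, moved 75 of 120 named genes by more than 1 SD, with all directions kept, and 41 of the 115 called were over 1.5 times as large in it. Against 2181 genes higher and 2096 lower, median centring gave 396 and 800 and a dye-effect term, fitted to genes on all 3 arrays, 1192 and 1026. Leaving out 1 array gave 1093 to 2557 higher, the lowest without replicate 2, and 939 to 2213 lower. Of the 208 genes at least 2-fold higher, the scanner software's processed signals gave 516, the dye term 117 and leaving out 1 array 123 to 244. For the 88 at least 2-fold lower, processed signals gave 299, median centring 151, the dye term 40 and leaving out 1 array 40 to 104. Detection on 2 of 3 arrays in place of all gave 170 genes gained and 38 lost, against 41 and 8. Leaving out 1 array gave 48 to 127 gained and 10 to 81 lost, with more lost than gained without replicate 1. Fits without an array rest on the other 2. The cause was not tested. The test itself pairs both lines within each array. No paired analysis was possible because of that with the replicate number as a further block, which would leave no contrast: each array gives 1 ratio. Signals near background limit what can be seen in genes dim in both lines, and at an unadjusted p under 0.05 limma counted 5767 genes.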
